A study of Mus musculus with 26 samples.

Results

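Regulatory and conventional CD4 T cells from the draining lymph node (dLN) were compared within mice that carry Foxp3Cre-ERT2 and Tnfrsf1bFlox/Flox, called icKO in the labels. The members are the 3 libraries labelled Treg_dLN_icKO (CD4+Foxp3+ cells) and the 3 labelled Tconv_dLN_icKO (CD4+Foxp3- cells), which make 6 of the 26 libraries of the series. All mice were C57BL/6, had active experimental autoimmune encephalomyelitis (EAE), were treated with tamoxifen between days 7 and 14 and were sampled at day 14. Tamoxifen lets the Cre-ERT2 recombinase enter the nucleus, and the Foxp3 gene drives it, so both cell types here carry the floxed Tnfrsf1b allele while Cre is made where Foxp3 is expressed. The dLN libraries of Foxp3Cre-ERT2 mice without the floxed allele, called Ctrl (3 Treg and 3 Tconv), received the same induction and tamoxifen and serve for comparison. The labels give neither the animals' age nor whether a library came from 1 mouse or from pooled mice.

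Regulatory T (Treg) cells are CD4 T cells that restrain other immune cells. The transcription factor FOXP3 maintains their identity, they depend on IL-2 that they take up through a high-affinity receptor and make little of themselves, and they carry inhibitory and tumour necrosis factor (TNF) family receptors at high levels. Tnfrsf1b encodes TNFR2, a receptor for TNF that signals to NF-kB and supports Treg cells. Conventional CD4 T (Tconv) cells of a lymph node include naive cells and the helper cells that make IL-2, IL-21 and other cytokines.

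The library labelled Tconv_dLN_icKO replicate 3 stood apart and was left out of the values below unless stated. It held 7775649 counts on 6005 genes, whereas the other 5 icKO libraries held 13310950 to 14997035 counts on 12991 to 13496 genes. Its Spearman correlation with any other dLN library was at most 0.6417 over 12045 genes, against at least 0.9273 among those other libraries. In CPM, counts scaled to a common library total, it had 14.7 of Foxp3, 199 of Il2ra, 264.5 of Ctla4 and 707 of Penk, all above the other Tconv icKO libraries, and also 1259 of the plasma cell gene Jchain, 1591.5 of the neutrophil gene S100a8 and 212.5 of Cd8a. It nevertheless had 1223 of Tcf7 and 1011 of Ccr7, genes of naive and central T cells. The comparison therefore rests on 3 Treg and 2 Tconv libraries. CPM values below are scaled with TMM library factors, except in that library.

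Treg cells of icKO mice had 1674 genes higher and 1381 lower than Tconv cells out of 12393 tested, which is 13.5% and 11.1% (edgeR quasi-likelihood test over the 11 other dLN libraries, Benjamini-Hochberg adjusted p under 0.05). The counts given below for gene lists are to be read beside these shares. The median size of a called change was 0.902 on the log2 scale, and 861 of the rises and 516 of the falls passed 1. With the library labelled Tconv_dLN_icKO replicate 3 added to the same model, 89 genes were higher and 77 lower, and all 166 were among the 3055 of the main result with the same direction. The common dispersion, edgeR's squared coefficient of variation between replicates, was 0.542 with it and 0.05 without it. Leaving out Tconv icKO replicate 1 left 1024 rises and 764 falls. Since RNA of whole populations was measured, fewer cells of a type and less RNA per cell cannot be told apart. Ranges that did not overlap between the 3 Treg and 2 Tconv libraries were found for 28.2% of tested genes on the higher side and 27.2% on the lower side.

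The targeted gene was read first. Tnfrsf1b (mm10 chr4:145213463-145246870, minus strand) had 644, 642 and 645 CPM in Treg icKO libraries, against 129 and 139 CPM in Tconv icKO libraries. All 3 Treg libraries thus lay far above both Tconv libraries, although the mice were bred to delete this gene in Treg cells. Its log2 fold change was 2.26 ± 0.10 (standard error; edgeR adjusted p = 3.3e-08). In Ctrl mice Tnfrsf1b had 824, 766 and 890 CPM in Treg libraries, against 131, 136 and 118 CPM in Tconv libraries, a log2 fold change of 2.69 ± 0.09. The icKO difference was smaller than the Ctrl difference by 0.42 ± 0.12, with an unadjusted p = 0.00394 and an edgeR adjusted p = 0.91 over all genes. The counts cover the whole gene and do not separate exons that Cre removes from those it leaves. The library labelled Tconv_dLN_icKO replicate 3 had 3.22 CPM of Tnfrsf1b, and with it the log2 fold change was 2.83 with an edgeR adjusted p = 0.19.

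Foxp3 (chrX:7573644-7595245, plus strand) had 47.9, 36.4 and 48.6 CPM in Treg icKO libraries, against 0.59 and 0.77 CPM in Tconv icKO libraries. The labels of these 5 libraries and the gene that defines them therefore pointed the same way. Its log2 fold change was 6.01 ± 0.30 (edgeR adjusted p = 5.7e-08), and 3.18 (adjusted p = 0.21) when the library labelled Tconv_dLN_icKO replicate 3 was added. Foxp3 shares bases with Ppp1r3f, Flicr and Ccdc22, and the library kit does not mark strand. On the per-length scale of the deposited TPM, Foxp3 averaged 19.5 in Treg icKO libraries and 0.285 in Tconv icKO libraries, while Il2ra averaged 188 and 7.36.

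Genes of the Treg core list were higher in Treg icKO cells for 25 of 26 members, with a median log2 fold change of 2.84 against -0.0058 over all tested genes. The exception, Itgb8, an integrin chain that helps to activate TGF-beta, had 5.89, 3.54 and 2.08 CPM in Treg libraries, against 1.33 and 0.69 CPM in Tconv libraries, and did not pass the test (edgeR adjusted p = 0.073). Il2ra, the alpha chain of the IL-2 receptor, had 497, 474 and 547 CPM in Treg libraries, against 19.3 and 21.2 CPM in Tconv libraries. Ctla4, which captures the costimulatory ligands of antigen-presenting cells, had 486, 482 and 459 CPM in Treg libraries, against 19.8 and 38.7 CPM in Tconv libraries. The log2 fold changes were 4.64 ± 0.24 for Il2ra and 4.02 ± 0.25 for Ctla4. Lrrc32, which encodes GARP, the surface anchor of latent TGF-beta, had 241, 199 and 233 CPM in Treg libraries, against 0 and 0.54 CPM in Tconv libraries. Itgae, the alpha chain of the CD103 integrin, had 438, 470 and 578 CPM in Treg libraries, against 8.63 and 15.3 CPM in Tconv libraries. Nrp1, a co-receptor typical of thymus-derived Treg cells, had 467, 400 and 413 CPM in Treg libraries, against 83.5 and 73.2 CPM in Tconv libraries. In Il2ra, Ctla4, Lrrc32, Itgae and Nrp1 the groups did not overlap. For Il2ra, Lrrc32 and Itgae this was also a condition for being named among the largest rises. With the library labelled Tconv_dLN_icKO replicate 3 in the fit, 6 of the 26 genes stayed higher, among them Itgae at a log2 fold change of 5.53, Nrp1 at 2.61 and Tnfrsf9 at 2.05.

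**Figure D1:**
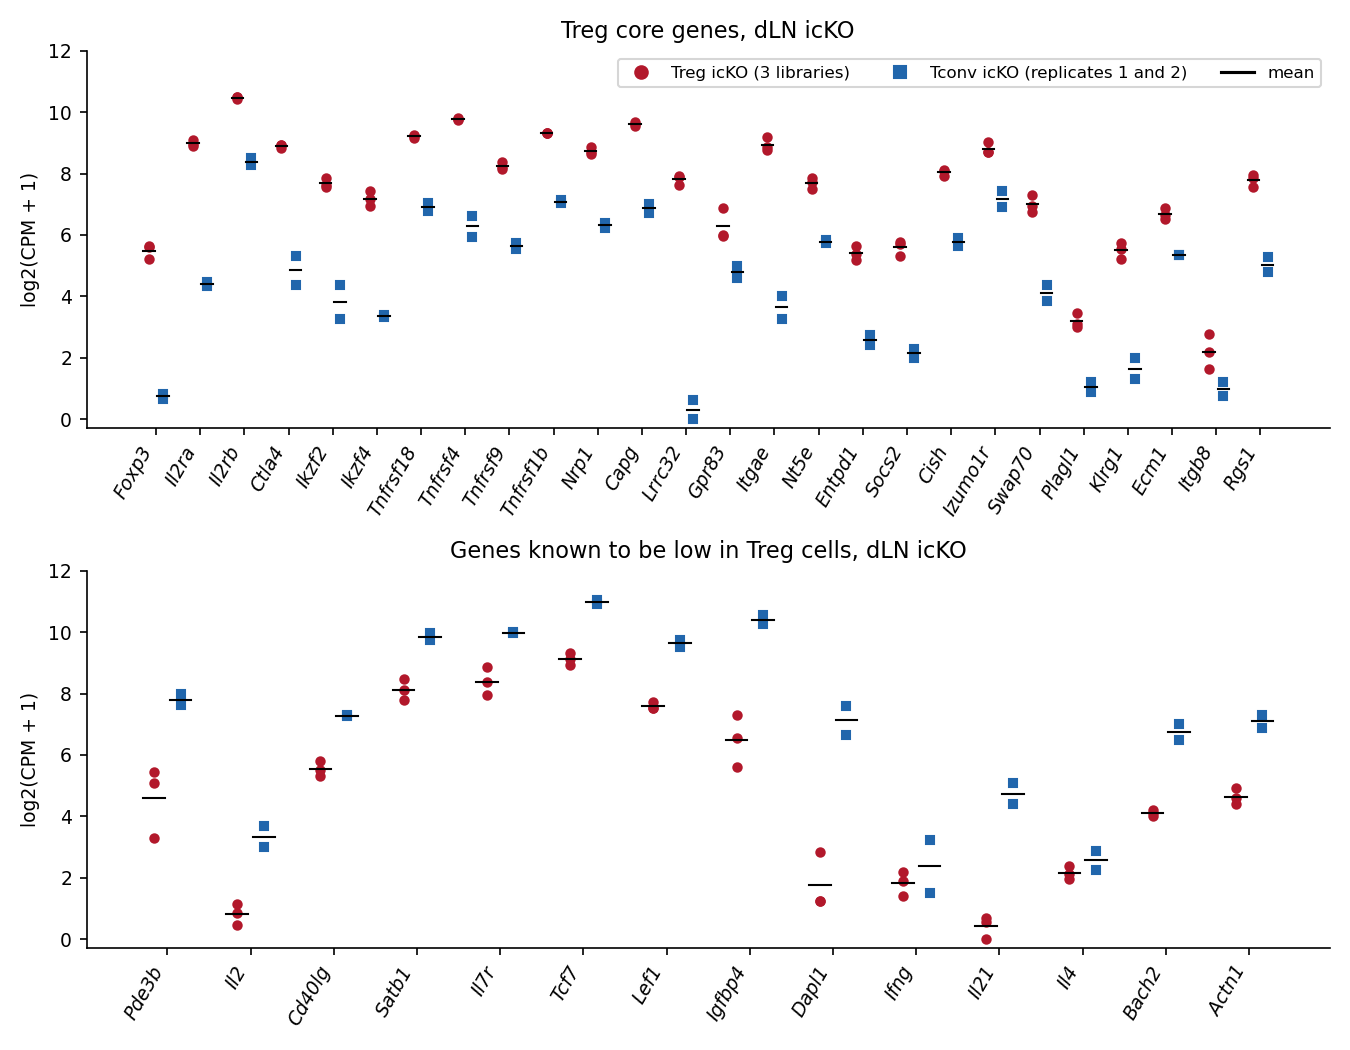
Level of each gene as log2(CPM + 1) in dLN icKO libraries, with circles for the 3 Treg libraries, squares for Tconv replicates 1 and 2, and lines for group means. The upper panel holds the 26 Treg core genes, where 25 are called higher in Treg cells, and the lower panel the 14 genes known to be low in Treg cells, where 12 are called lower.

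The Ikaros family of zinc finger transcription factors split by member. Ikzf2 (Helios) had 230, 190 and 195 CPM in Treg icKO libraries, against 8.48 and 19.5 CPM in Tconv icKO libraries. Ikzf4 (Eos), a FOXP3 partner, had 143, 123 and 170 CPM in Treg libraries, against 9.07 and 9.55 CPM in Tconv libraries. Ikzf3 (Aiolos) was higher by 1.34 ± 0.19 on the log2 scale. Ikzf1 (Ikaros), by contrast, had 148, 136 and 153 CPM in Treg libraries, against 434 and 414 CPM in Tconv libraries, a log2 fold change of -1.54 ± 0.10 (edgeR adjusted p = 6e-07). The remaining member, Ikzf5, had a log2 fold change of -0.13 and was not called.

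The 12 largest rises with at least 10 CPM and no overlap between groups included Foxp3, Lrrc32, Itgae and Il2ra. Ccl22, a chemokine that binds CCR4 and is made in abundance by dendritic cells, had 14.5, 71.6 and 4.89 CPM in Treg icKO libraries. Both Tconv icKO libraries had 0 CPM of Ccl22. Its Treg mean was at least 134-fold higher against a floor of 3 counts per library. The bounds of this kind given below also use the group mean. Its 3 Treg values were far apart. The edgeR adjusted p was 0.018, but it was 0.105 without Tconv icKO replicate 1, 0.088 without Tconv icKO replicate 2, and limma gave 0.57. Dnah7a, a dynein heavy chain with close paralogs, had 15.7, 13.1 and 11.9 CPM in Treg libraries and 0 CPM in both Tconv libraries, at least 59.8-fold higher. Dgat2, which makes triglycerides, had 27.3, 30 and 27.1 CPM in Treg libraries, against 0.59 and 1.46 CPM in Tconv libraries. Src, a tyrosine kinase, had 8.69, 10.1 and 11.3 CPM in Treg libraries, against 0.15 and 0.62 CPM in Tconv libraries. Rln3, a relaxin family peptide, Scin, an actin-severing protein, Ica1 and Fam81a completed the 12, with log2 fold changes between 4.43 and 5.41. All of these genes were also higher in Treg cells of Ctrl mice, with log2 fold changes from 3.28 for Src to 8.49 for Lrrc32.

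Among the 12 largest falls, Lrrc75b had 0 CPM in all 3 Treg icKO libraries, against 14.2 and 14 CPM in Tconv icKO libraries, at least 68.3-fold lower. Il21, the helper cytokine that acts on B cells, had 0, 0.48 and 0.60 CPM in Treg libraries, against 19.9 and 32.7 CPM in Tconv libraries. Dapl1, a gene of resting naive T cells, had 6.10, 1.36 and 1.34 CPM in Treg libraries, against 194 and 99.8 CPM in Tconv libraries. Il21 and Dapl1 were thus low in each Treg library, and absence of overlap was a condition for entering these 12 genes. Atp1b1, a sodium pump subunit, had 6.96, 4.01 and 7.10 CPM in Treg libraries, against 172 and 142 CPM in Tconv libraries. Pdlim4, which binds actin, had 2.23, 3.27 and 1.27 CPM in Treg libraries, against 82.7 and 92.7 CPM in Tconv libraries. Ccr9, a gut-homing receptor, had 0.72, 0.68 and 0 CPM in Treg libraries, against 18.9 and 8.17 CPM in Tconv libraries. Dntt, the enzyme that adds bases to receptor junctions in developing lymphocytes, was lower by -4.85 ± 0.98 on the log2 scale. Reads of Itgae and Haspin, Atp1b1 and Nme7, Ccr9 and Lztfl1, and Xkrx and Nox1 cannot be separated where these genes overlap. Lypd6b, Xkrx, Adh1, Tspan9 and Ggt5 made up the rest, with log2 fold changes between -6.45 and -4.85. Of these 12 genes, Dapl1 remained called when the library labelled Tconv_dLN_icKO replicate 3 was added, at -5.23 on the log2 scale (edgeR adjusted p = 0.016).

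In Treg icKO cells, 17 of 18 genes typical of naive and central memory T cells were lower, and the list's median log2 fold change was -1.63. Tcf7, the transcription factor TCF1, had 633, 563 and 488 CPM in Treg libraries, against 2114 and 1914 CPM in Tconv libraries. Lef1, its relative, had 208, 182 and 185 CPM in Treg libraries, against 851 and 737 CPM in Tconv libraries. Bach2, a repressor of effector programs, had 17.4, 15 and 16.1 CPM in Treg libraries, against 128 and 87.8 CPM in Tconv libraries. Ccr7, which brings T cells into lymph nodes, had 398, 362 and 291 CPM in Treg libraries, against 1184 and 1128 CPM in Tconv libraries. The groups were separated in all 4 genes, and the log2 fold changes ran from -1.72 ± 0.14 for Ccr7 to -2.73 ± 0.18 for Bach2. S1pr1, the exit receptor of lymph nodes, fell by 0.80 on the log2 scale. Slamf6 was the member that went the other way, with 507, 499 and 546 CPM in Treg libraries, against 274 and 327 CPM in Tconv libraries. With the library labelled Tconv_dLN_icKO replicate 3 included, 11 of the 18 stayed lower and Slamf6 was no longer called.

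The list of genes known to be low in Treg cells overlaps with that one and was lower for 12 of 14 members. Il2, whose transcription FOXP3 restrains, had 0.36, 1.22 and 0.80 CPM in Treg libraries, against 6.93 and 11.9 CPM in Tconv libraries. Cd40lg, the helper signal to B cells and dendritic cells, had 55.4, 44.7 and 38.5 CPM in Treg libraries, against 155 and 153 CPM in Tconv libraries. Ifng and Il4 were not called. Ifng had 3.52, 1.63 and 2.68 CPM in Treg libraries, against 1.84 and 8.40 CPM in Tconv libraries. With Tconv_dLN_icKO replicate 3, 8 of the 14 genes remained lower.

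Effector Treg genes were higher for 20 of 25 members, with a median log2 fold change of 1.87. Penk, an opioid peptide precursor, had 278, 215 and 229 CPM in Treg libraries, against 27.7 and 29.9 CPM in Tconv libraries. Ccr8, a chemokine receptor of activated Treg cells, had 121, 102 and 90.4 CPM in Treg libraries, against 16.9 and 14.3 CPM in Tconv libraries. Cd83, a surface protein of activated lymphocytes and dendritic cells, had 322, 259 and 239 CPM in Treg libraries, against 33 and 42.2 CPM in Tconv libraries. Both libraries of Tconv cells were well below every Treg library in these genes. Klrg1 (4.35 ± 0.48), Il1rl1, the IL-33 receptor (4.29 ± 0.53), and Gzmb, granzyme B (3.96 ± 0.71), had the steepest rises of this list after Itgae on the log2 scale. Gzmb varied among Treg libraries, with 91.5, 124 and 287 CPM, against 5.61 and 16 CPM in Tconv libraries. Il10, Fgl2, Lag3 and Pdcd1 were among those not called. Il10 had 1.08, 3.13 and 4.02 CPM in Treg libraries, against 0.15 and 1.54 CPM in Tconv libraries (edgeR adjusted p = 0.30). Of the 25 genes, 1 stayed higher with the library labelled Tconv_dLN_icKO replicate 3, in which Penk exceeded every Treg library.

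Among helper lineage transcription factors, 8 of 19 were higher and 5 lower, and 3 were lower without Tconv icKO replicate 2. Ahr, the aryl hydrocarbon receptor, had 121, 134 and 111 CPM in Treg libraries, against 15 and 16 CPM in Tconv libraries. Prdm1 (BLIMP1), a factor of effector differentiation, had 66.8, 87.4 and 96.2 CPM in Treg libraries, against 14.1 and 8.86 CPM in Tconv libraries. Irf4 rose by 1.87 ± 0.14 and Gata3, the Th2 factor that Treg cells also use, by 0.88 ± 0.10 on the log2 scale. Eomes, a factor of cytotoxic cells, had 0.72, 0.75 and 1.14 CPM in Treg libraries, against 12.5 and 21.5 CPM in Tconv libraries. Bcl6, the follicular helper factor, had 33.3, 23.7 and 20.8 CPM in Treg libraries, against 49.6 and 55.6 CPM in Tconv libraries. The Th1 factor Tbx21 was not called. Of the 12 follicular T cell genes, 3 were higher and 4 lower, against 5 and 2 without Tconv icKO replicate 2, and the falls included Il21, Bcl6, the chemokine receptor Cxcr5 (-1.15 ± 0.23) and Sostdc1 (-4.05 ± 0.66). Cxcr5 had a log2 fold change of -0.67 without Tconv icKO replicate 2. Once Tconv_dLN_icKO replicate 3 was added to the fit, 0 of the 12 follicular T cell genes were called.

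The IL-2 receptor and STAT5 list mixed directions, with 5 members higher and 4 lower of 14. Adding Tconv_dLN_icKO replicate 3 to the fit left 1 higher and 0 lower. Il2rb, the beta chain, had 1435, 1362 and 1434 CPM in Treg libraries, against 308 and 360 CPM in Tconv libraries. The shared gamma chain Il2rg had a log2 fold change of -0.28 and was not called. Cish, a feedback inhibitor induced through STAT5, had 277, 239 and 269 CPM in Treg libraries, against 48.7 and 58.3 CPM in Tconv libraries. Socs2, of the same inhibitor family, had 53.5, 38.4 and 51.5 CPM in Treg libraries, against 3.84 and 3.01 CPM in Tconv libraries. Il7r, the IL-7 receptor chain of resting T cells, had 247, 328 and 460 CPM in Treg libraries, against 998 and 1020 CPM in Tconv libraries. Socs3 was lower by -0.94 ± 0.20 and Jak1 by -0.70 ± 0.09 on the log2 scale.

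Cish and Il2ra were among the members with the largest rises of that list, and their promoter windows are shown for the STAT5-type element TTCNNNGAA, which reads the same on both strands. The windows run from 250 bases before to 50 bases from the annotated start (RefSeq, GRCm38.p6), both are on the plus strand, at chr9:107296409-107296708 for Cish and chr2:11642542-11642841 for Il2ra, and matches are in capitals.
Cish: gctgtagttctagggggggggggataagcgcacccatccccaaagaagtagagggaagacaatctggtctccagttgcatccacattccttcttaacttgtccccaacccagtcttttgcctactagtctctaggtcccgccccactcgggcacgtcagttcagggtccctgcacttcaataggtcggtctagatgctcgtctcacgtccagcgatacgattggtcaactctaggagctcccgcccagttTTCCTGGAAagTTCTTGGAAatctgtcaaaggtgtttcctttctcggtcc
Il2ra: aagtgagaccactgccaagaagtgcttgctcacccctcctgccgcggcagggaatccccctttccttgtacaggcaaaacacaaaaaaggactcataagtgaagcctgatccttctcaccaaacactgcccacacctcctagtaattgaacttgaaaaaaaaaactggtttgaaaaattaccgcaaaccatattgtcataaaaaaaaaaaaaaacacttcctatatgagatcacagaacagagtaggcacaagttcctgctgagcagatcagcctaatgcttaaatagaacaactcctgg
The Cish window held 2 matches, beginning 0 and 11 bases after the annotated start, and the Il2ra window held 0. Across 32851 promoter windows of that length, 8.3% held the element and 0.457% held 2 or more. Of the 14 genes of the list, 12 had a window, and the rising genes Il2rb and Socs2 had none. Some genes had several windows. A match was held by 3 genes, among them Il7r and Socs3, which were lower in Treg cells. These list counts are by gene, whereas the 8.3% is by window.

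TNF receptors were higher for 6 of 16 members and lower for 2, and lower for 1 without Treg icKO replicate 2 or either Tconv library. The share of falls was close to the 11.1% of all tested genes called lower. Besides Tnfrsf1b, the rises were in the costimulatory receptors Tnfrsf4 (OX40), Tnfrsf9 (4-1BB), Tnfrsf18 (GITR) and Tnfrsf8 (CD30), and in Cd40. Tnfrsf4 had 888, 868 and 855 CPM in Treg libraries, against 60.2 and 97.8 CPM in Tconv libraries. Tnfrsf9 had 297, 280 and 332 CPM in Treg libraries, against 52.4 and 45.8 CPM in Tconv libraries. Tnfrsf18 had 568, 596 and 613 CPM in Treg libraries, against 109 and 132 CPM in Tconv libraries. These 3 receptors had log2 fold changes of 3.46 ± 0.18, 2.63 ± 0.12 and 2.30 ± 0.16. Adding Tconv_dLN_icKO replicate 3 to the fit left 1 of the 16 receptors higher, Tnfrsf9, and 0 lower. In that fit the edgeR adjusted p was 0.066 for Tnfrsf4 and 0.17 for Tnfrsf18. Tnfrsf1a, the death-domain receptor for TNF, went the other way from Tnfrsf1b, with 33.5, 24.3 and 28.8 CPM in Treg libraries, against 66.6 and 58.2 CPM in Tconv libraries. On the deposited TPM scale, Tnfrsf1b averaged 215 in Treg icKO libraries and 43.8 in Tconv icKO libraries, while Tnfrsf1a averaged 23 and 48.8. Of the 13 TNF ligands tested, 3 were higher and 3 lower, and 1 was higher without Tconv icKO replicate 1. Tnfsf8, the ligand of CD30, had 72.5, 65.3 and 60.2 CPM in Treg libraries, against 130 and 157 CPM in Tconv libraries. Tnf itself had 45.3, 28.7 and 32 CPM in Treg libraries, against 29.7 and 33.4 CPM in Tconv libraries, and was not called. Tnfsf14 (LIGHT) was higher by 0.98 ± 0.22, lost its call without Tconv icKO replicate 1, and was -1.70 on the log2 scale with Tconv_dLN_icKO replicate 3.

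Genes of the NF-kB machinery, through which TNFR2 signals, had 2 members higher and 2 lower of 23, both shares below those of all tested genes, with a median log2 fold change of 0.07. Without Tconv icKO replicate 1, 1 was higher and 1 lower, and 1 was lower without Treg icKO replicate 2 or Tconv icKO replicate 2. Map3k14, the kinase NIK of the alternative pathway, had 28.5, 28.2 and 22.3 CPM in Treg libraries, against 54.9 and 56.9 CPM in Tconv libraries. Nfkbid had 103, 99.1 and 98.5 CPM in Treg libraries, against 64.7 and 60 CPM in Tconv libraries. Traf1 was higher by 0.72 ± 0.17 and Rela lower by -0.27 ± 0.09. Rela lost its call in each of the 5 fits that left out 1 icKO library except the one without Treg replicate 1, and Traf1 lost it without Tconv replicate 1. Nfkbid and Traf1 had log2 fold changes of -0.38 and -0.06 with Tconv_dLN_icKO replicate 3.

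**Figure D2:**
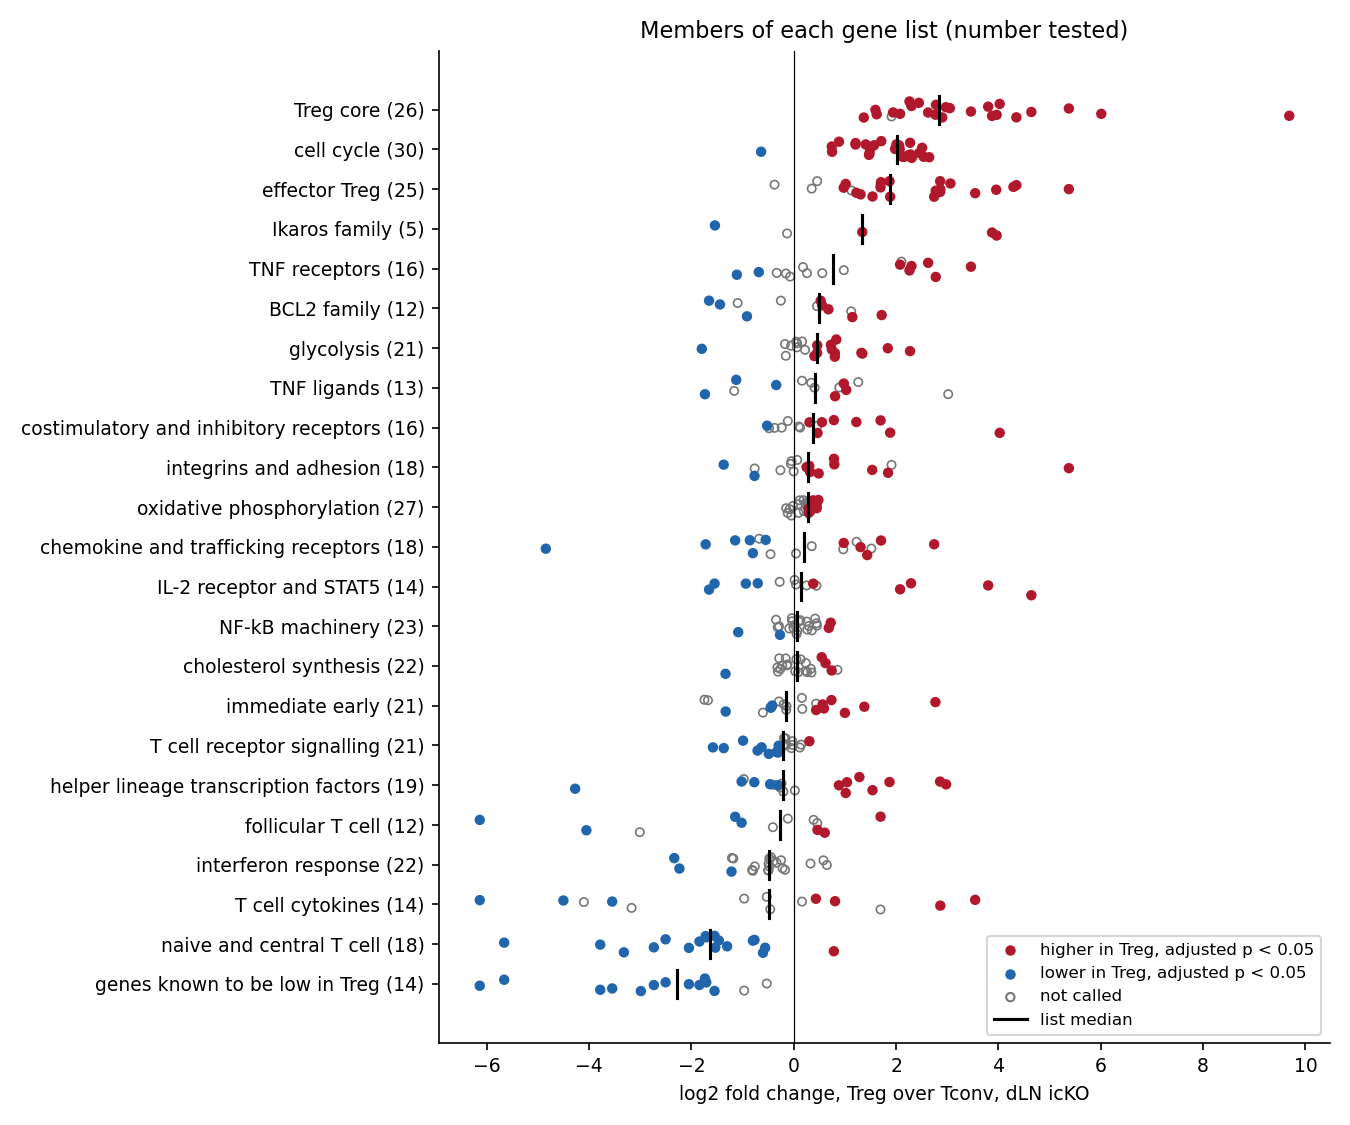
Log2 fold change (Treg over Tconv, dLN icKO) of every tested member of each functional list, with the number tested in brackets, filled points for genes with an edgeR adjusted p under 0.05 and vertical bars for list medians. The Treg core list has the highest median, 2.84, and the list of genes known to be low in Treg cells the lowest, -2.28.

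Receptors for position and contact were split. Of 18 chemokine and trafficking receptors, 5 were higher and 6 lower. These counts were 0 and 1 once Tconv_dLN_icKO replicate 3 was added to the fit. Ccr4, which binds CCL22, had 112, 126 and 139 CPM in Treg libraries, against 47.6 and 45.2 CPM in Tconv libraries. Ccr6 had 104, 92.8 and 83.8 CPM in Treg libraries, against 21.7 and 35.8 CPM in Tconv libraries. Gpr183, a receptor for oxysterols, was lower by -0.55 ± 0.11 on the log2 scale. Of 18 integrin and adhesion genes, 9 were higher and 2 lower, the falls close to the 11.1% of all tested genes called lower. Itgb1 had 1615, 1692 and 1701 CPM in Treg libraries, against 594 and 560 CPM in Tconv libraries. Itga4, the chain of VLA-4 that T cells use to enter the inflamed central nervous system, had 55.1, 31.1 and 40.5 CPM in Treg libraries, against 137 and 81 CPM in Tconv libraries (edgeR adjusted p = 0.027). Without Tconv icKO replicate 1, the counts of the adhesion list were 4 higher and 1 lower, 5 were higher without Tconv icKO replicate 2, and 1 was lower without Treg icKO replicate 2.

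Costimulatory and inhibitory receptors were higher for 8 of 16 members and lower for 1, Cd96, and that fall was not called without Treg icKO replicate 2 or 3 or either Tconv library. Icos had 1443, 1470 and 1492 CPM in Treg libraries, against 362 and 544 CPM in Tconv libraries. T cell receptor signalling genes, in contrast, were lower for 9 of 21 members and higher for 1, Lcp2, which was lost in each fit that left out 1 icKO library. With Tconv_dLN_icKO replicate 3 in the fit, 3 of these 21 genes were lower. Themis had 81.6, 95.4 and 96.1 CPM in Treg libraries, against 266 and 204 CPM in Tconv libraries. Cd247, the zeta chain, and Cd4 fell by 0.99 and by 0.63 on the log2 scale, and the groups were separated in all of these genes. Of 21 tested immediate early genes, 7 were higher and 4 lower, and 2 were lower without Treg icKO replicate 2 or 3 or Tconv icKO replicate 1, and 1 without Tconv icKO replicate 2. The phosphatase Dusp4 had 23.8, 21.2 and 28.3 CPM in Treg libraries, against 3.69 and 3.47 CPM in Tconv libraries. Dusp6, in contrast, fell by 1.33 on the log2 scale. After Tconv_dLN_icKO replicate 3 was added, 0 of the 16 costimulatory and inhibitory receptors and 0 of the 21 immediate early genes were called.

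Of the 19 T cell cytokines, 14 passed the filter on low counts, and 4 were higher and 3 lower in Treg cells. Without Treg icKO replicate 1, Tconv icKO replicate 1 or Tconv icKO replicate 2, 2 were higher, and with Tconv_dLN_icKO replicate 3 none was called in either direction. Ebi3, a subunit of IL-35 and IL-27, had 124, 133 and 113 CPM in Treg libraries, against 12.2 and 21.7 CPM in Tconv libraries. Areg, the tissue repair factor amphiregulin, had 9.98, 13.1 and 10.1 CPM in Treg libraries, against 1.18 and 0.69 CPM in Tconv libraries. Tgfb1 rose by 0.43 ± 0.11. Besides Il2 and Il21, Il22 was lower, with 0.14, 0.68 and 0.07 CPM in Treg libraries, against 4.87 and 9.02 CPM in Tconv libraries. Il17a, a cytokine central to EAE, reached at most 1.08 CPM in the 5 libraries, and Csf2 at most 0.75 CPM. Neither was called.

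Cell cycle genes were higher in Treg icKO cells for 29 of 30 members, with a median log2 fold change of 2.01 in icKO mice and 1.59 in Ctrl mice. Cdk1, the kinase of mitotic entry, had 123, 146 and 135 CPM in Treg libraries, against 23.4 and 25.9 CPM in Tconv libraries. Mki67, which encodes Ki-67, had 280, 390 and 371 CPM in Treg libraries, against 58.1 and 88.1 CPM in Tconv libraries. Rrm1, a subunit of ribonucleotide reductase, had 377, 475 and 480 CPM in Treg libraries, against 150 and 166 CPM in Tconv libraries. Every Treg library was above both Tconv libraries in these 3 genes. The list summed to 6861, 8247 and 7656 CPM of the library total in Treg libraries, against 3021 and 3305 CPM in Tconv libraries. Ccnd2, a D-type cyclin, was the member that fell, with 691, 510 and 473 CPM in Treg libraries, against 898 and 840 CPM in Tconv libraries. With the library labelled Tconv_dLN_icKO replicate 3, 5 of the 30 genes stayed higher.

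Glycolysis genes were higher for 12 of 21 members and lower for 1, and with Tconv_dLN_icKO replicate 3 in the fit 2 were higher and 0 lower. Gapdh had 1490, 1665 and 1617 CPM in Treg libraries, against 775 and 1014 CPM in Tconv libraries. Slc16a3, a lactate exporter, had 17.7, 22.4 and 26.4 CPM in Treg libraries, against 5.02 and 4.16 CPM in Tconv libraries, and reversed to a log2 fold change of -0.67 with Tconv_dLN_icKO replicate 3, where it had 106 CPM. Pdk1, a pyruvate dehydrogenase kinase, had 96.9, 84.9 and 106 CPM in Treg libraries, against 327 and 339 CPM in Tconv libraries. Its log2 fold change was -1.80 ± 0.15. Oxidative phosphorylation genes were higher for 9 of 27, with small changes such as 0.45 ± 0.11 for Cox5a, and none of the 27 was called without Tconv icKO replicate 1. Cholesterol synthesis genes were higher for 3 of 22, close to the 13.5% of all tested genes, and lower for 1. Without Tconv icKO replicate 1 these counts were 1 and 0. The fall was not called without Treg icKO replicate 2 or 3 either, and without Tconv icKO replicate 2 there were 2 falls.

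Survival genes of the BCL2 family differed by member. Bcl2 had 148, 105 and 110 CPM in Treg libraries, against 391 and 372 CPM in Tconv libraries. Bcl2l1, which encodes BCL-XL, had 111, 108 and 96.7 CPM in Treg libraries, against 29.7 and 34.3 CPM in Tconv libraries. Bbc3 (PUMA), which promotes death, had 29.7, 24.9 and 32 CPM in Treg libraries, against 75.5 and 81.3 CPM in Tconv libraries. Of the 12 genes, 5 were higher and 3 lower, and 2 were higher without Tconv icKO replicate 1.

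Interferon response genes were lower for 3 of 22 members, close to the 11.1% of all tested genes called lower, and higher for none, with a median log2 fold change of -0.49. Without Treg icKO replicate 2, 6 were lower, and without Tconv icKO replicate 2, 2 were higher. Ifit2 had 33, 45.8 and 42.8 CPM in Treg libraries, against 77.4 and 111 CPM in Tconv libraries. Oasl1 had 2.58, 5.92 and 3.08 CPM in Treg libraries, against 18.4 and 20.7 CPM in Tconv libraries. Oasl2 had 8.04, 21.6 and 4.42 CPM in Treg libraries, against 29.4 and 77.5 CPM in Tconv libraries, and lost its call without Tconv icKO replicate 2. Within both groups, replicate 2 was usually the highest for these genes. In 21 of 22 genes replicate 2 was the highest of the Treg libraries and also the higher of the Tconv libraries, which held for 17.5% of all tested genes. The 22 genes were read in the same 5 libraries and are not independent replicates, so the 21 do not count as separate observations. Ifit1 had 52.2, 120 and 46.6 CPM in Treg libraries, against 90.6 and 246 CPM in Tconv libraries.

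**Figure D3:**
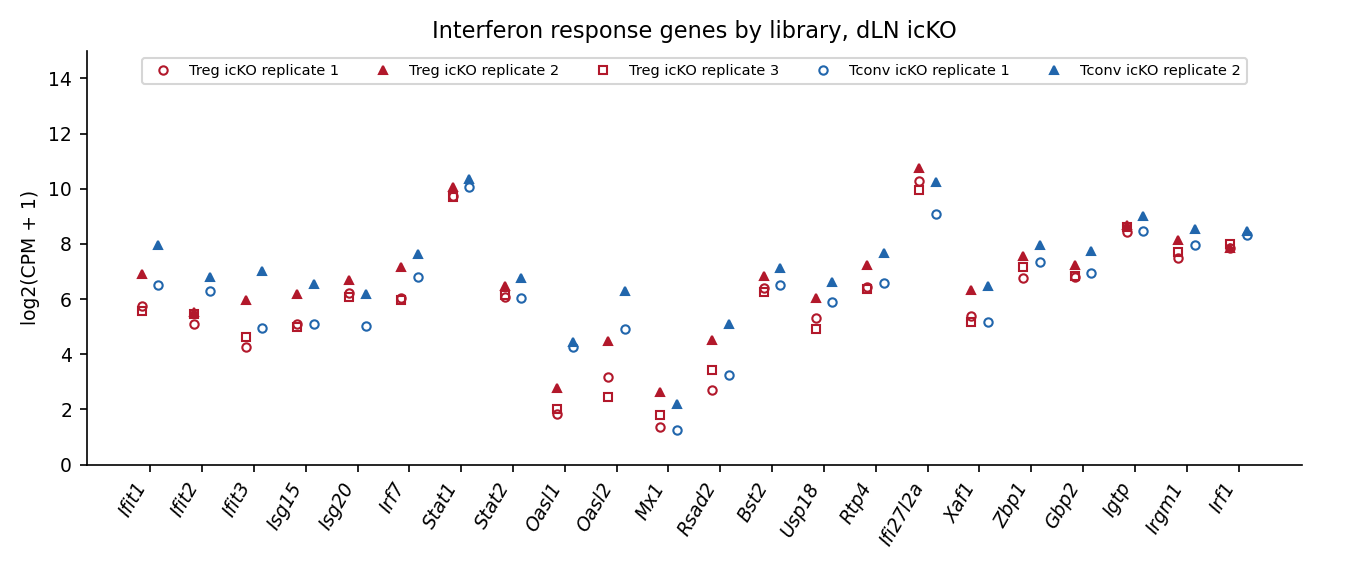
Level of each interferon response gene as log2(CPM + 1) in dLN icKO libraries, with Treg libraries to the left and Tconv libraries to the right of each gene's position and filled triangles for replicate 2. Replicate 2 is the highest in both cell types for 21 of the 22 genes.

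Transcripts of other cell types also differed between some libraries. The 13 monocyte and macrophage markers summed to 755, 667 and 368 CPM of the library total in Treg icKO libraries, against 196 and 145 CPM in Tconv icKO libraries. Of the 13, 2 were called, both higher, which is close to the share of all tested genes. Across all tested genes, 13.5% were called higher and 11.1% lower. Lyz2 made up most of this, with 552, 462 and 259 CPM in Treg libraries, against 72.9 and 55.2 CPM in Tconv libraries, and lost its call without either Tconv library. Csf1r was the other, and its call was lost in 4 of the 5 fits that left out 1 icKO library. In the Ctrl mice the sums ran from 115 to 944 CPM in Treg libraries and from 92.8 to 218 CPM in Tconv libraries. B cell markers summed to 67.5, 80.9 and 82.2 CPM in Treg libraries, against 24.8 and 28.8 CPM in Tconv libraries, most of it Cd79b and Cd22. Of the B cell markers tested, 2 of 7 were higher and 1 lower, and without Tconv icKO replicate 1 these counts were 1 and 0. Dendritic cell markers summed to 38.8, 109 and 19.7 CPM in Treg libraries, against 82.9 and 42.4 CPM in Tconv libraries. Ccl22 was called higher and Siglech lower, Siglech losing its call in 4 of the 5 fits that left out 1 icKO library, and Clec9a was at or near 0 in all 5 libraries. Ccl22 and the dendritic cell gene Fscn1 were both highest in Treg replicate 2, where Fscn1 had 17.3 CPM. The 9 dendritic cell markers together had a median log2 fold change of -0.82, and 7 of them were not called. Plasma cell markers summed to 11.7, 58.2 and 45.6 CPM in Treg libraries, against 5.16 and 15.3 CPM in Tconv libraries, and 1 of 4 tested was called, Derl3, which lost its call without Tconv icKO replicate 1. Neutrophil markers summed to 19.5, 9.95 and 15.3 CPM in Treg libraries, against 3.83 and 0.23 CPM in Tconv libraries. Of 4 tested, 1 was called, Mmp9, which was higher by 3.27 ± 0.87 on the log2 scale and lost its call without Tconv icKO replicate 2 and in limma. Erythroid markers summed to at most 0.72 CPM. Endothelial and fibroblast markers summed to 87.8, 104 and 106 CPM in Treg libraries, against 176 and 165 CPM in Tconv libraries, and consisted mostly of Pecam1, which T cells also express. The part of these transcripts in the differences above was not tested.

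CD8 T and NK markers were lower in Treg cells for 4 of 11 and higher for none. Prf1 (perforin) had 3.88, 2.72 and 4.62 CPM in Treg libraries, against 82 and 72.1 CPM in Tconv libraries. Klrd1 had 0.07, 0.61 and 1.61 CPM in Treg libraries, against 22.5 and 10.6 CPM in Tconv libraries. Gzmk and Ncr1 were the others, and Gzmk lost its call in 3 of the 5 fits that left out 1 icKO library. Cd8a stayed at or below 5.61 CPM in all 5 libraries. Of 7 general T cell markers, 2 were higher and 3 lower, with 1 higher without Tconv icKO replicate 1 and 1 lower without Tconv icKO replicate 2, and Cd3e had 1016, 813 and 842 CPM in Treg libraries, against 1096 and 1153 CPM in Tconv libraries. Of 8 tested genes of heat shock and cell handling, 2 were higher and 1 lower, against 13.5% and 11.1% of all tested genes. The largest called log2 change was -0.52 for Dnajb1, which was -0.30 without Tconv icKO replicate 1 and lost its call without Treg icKO replicate 2.

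**Figure D4:**
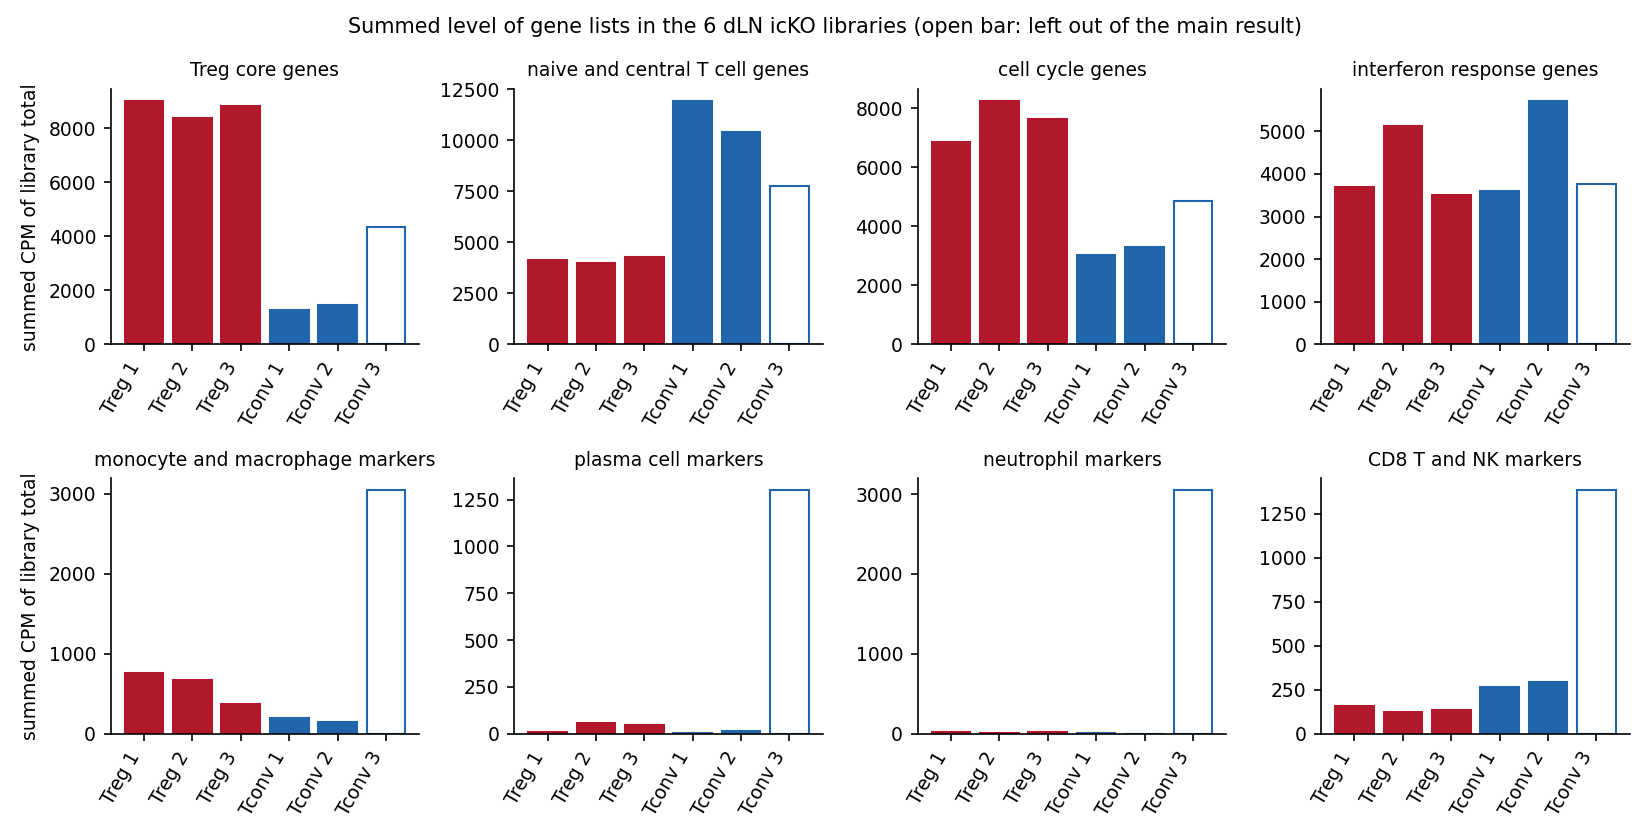
Summed CPM of the library total for 8 gene lists in each of the 6 dLN icKO libraries, with filled bars for the 3 Treg libraries and Tconv replicates 1 and 2 and an open bar for the library labelled Tconv replicate 3, which the main result leaves out. The open bar lies between the groups for Treg core and cell cycle genes and reaches 3046 CPM for neutrophil markers, which sum to at most 19.5 CPM in the other 5 libraries.

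The same comparison in Ctrl mice asks whether the Treg to Tconv difference depends on the icKO genotype, and shares no library with the icKO comparison. Ctrl mice had 1812 genes higher in Treg cells and 1583 lower, 14.6% and 12.8% of those tested. Of the icKO rises, 1330 were also rises in Ctrl, which is 79.5% of the icKO and 73.4% of the Ctrl rises. Of the icKO falls, 1014 were also falls in Ctrl, which is 73.4% of the icKO and 64.1% of the Ctrl falls. No gene was called in opposite directions, and 3008 of the 3055 genes called in icKO had the same sign in Ctrl. Across the 12393 genes, which are not independent replicates, the log2 fold changes had a Pearson r of 0.701 and a Spearman rho of 0.74.

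**Figure D5:**
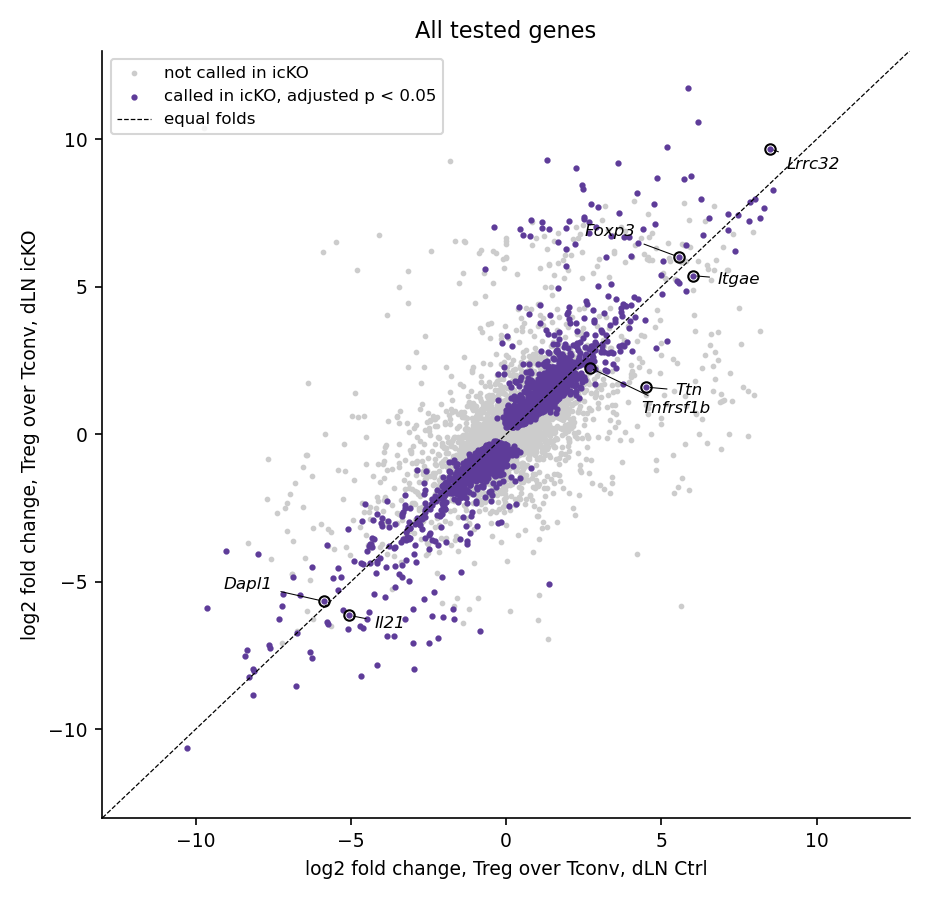
Log2 fold change of Treg over Tconv cells in the dLN of icKO mice (vertical) against that in Ctrl mice (horizontal) for 12393 genes, with purple points for genes called in icKO and a dashed line for equal folds. Most purple points lie in the upper right or the lower left, where both genotypes differ the same way, and Ttn lies below the dashed line.

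No gene passed the test of the difference between these differences in edgeR, and 4.34% of genes (538) fell below an unadjusted threshold of 0.05. By DESeq2 9 genes were called, by limma 0. The gene with the smallest p was Ttn, the giant muscle protein titin, which had 109, 86.5 and 56.2 CPM in Treg icKO libraries, against 40.6 and 14.6 CPM in Tconv icKO libraries. Its log2 fold change was 1.60 ± 0.34 in icKO mice and 4.51 ± 0.35 in Ctrl mice, a difference of -2.91 ± 0.46 with an edgeR adjusted p = 0.32. The difference for Ttn was -3.47 without Tconv icKO replicate 2 and -1.99 without Tconv icKO replicate 1. Without a filter on low counts it was -2.91 (edgeR adjusted p = 0.0046). In DESeq2 it was -2.92 (adjusted p = 8.3e-07), and in limma -2.87 (adjusted p = 0.91). Neil3, a DNA repair glycosylase of dividing cells, had 18.3, 28 and 19.8 CPM in Treg icKO libraries, against 2.36 and 1.85 CPM in Tconv icKO libraries. It had 19.1, 21 and 20.3 CPM in Treg Ctrl libraries, against 10.5, 6.79 and 6.27 CPM in Tconv Ctrl libraries, and the Treg values of the genotypes were thus close while the Tconv values were lower in icKO. Nqo1, an oxidoreductase, had 3.95, 4.49 and 5.29 CPM in Treg icKO libraries and 0 in both Tconv icKO libraries, at least 20.2-fold higher. Jcad and Lncpint were next, and the edgeR adjusted p of Neil3, Nqo1, Jcad and Lncpint was 0.64 each. DESeq2 called Neil3 (adjusted p = 0.0145) and Lncpint (0.0276), but not Nqo1 (0.0912), and gave no adjusted p for Jcad. Lncpint had 5.38, 4.01 and 4.76 CPM in Treg icKO libraries, against 16.4 and 11.9 CPM in Tconv icKO libraries, with a Ctrl log2 fold change of 0.28.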

How the data were processed

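Polyadenylated RNA of purified cells was made into libraries with SMART-Seq v4 and Nextera, per the labels' protocols. Reads passed through FastQC and Trimmomatic, STAR 2.5.3a and RSEM 1.2.28 with the mm10 build, per the submitters' processing notes. The authors deposited expected counts per gene, the read numbers RSEM assigns, and TPM, which the authors' RSEM run scaled to gene length and library total. Expected counts of 24848 genes were rounded here to whole numbers. edgeR 4.0.16 in R 4.3.3 was fitted to 4 group means over 11 dLN libraries (12087 to 13538 genes detected in each), with filterByExpr and TMM factors. Standard errors are the log2 fold change over the root of F. DESeq2 1.42.0 and limma 3.58.1 were alternatives. Figures used matplotlib 3.10.9. The procedure was tested on simulated data.

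Named genes were Tnfrsf1b, Foxp3, the 12 largest called rises and falls with at least 10 CPM and no overlap, the 4 called genes of lowest p in each list, and the 5 of lowest interaction p; others were named after their values were seen, to complete lists. The 33 lists, the comparison and the library left out were chosen with earlier results of these data known. The labels do not say that replicates came from separate mice, so p-values measure the spread between these libraries. Central nervous system libraries entered 2 alternatives only. Some genes are not reported here.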

Additional observations from a re-analysis of the deposited data

Results flagged for a closer look

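The library labelled Tconv_dLN_icKO replicate 3, which the comparison leaves out, held marker transcripts of other cells above the level of each of the other 11 dLN libraries. As summed CPM of the library total, neutrophil markers reached 3046 in it, against at most 31.3 in the others, and monocyte and macrophage markers reached 3039, against at most 944. CD8 T and NK markers reached 1382, against at most 335, plasma cell markers 1299, against at most 58.2, and B cell markers 634.5, against at most 82.1.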

How the results depend on the processing

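The counts of 1674 higher and 1381 lower genes stayed within 1.5 times under DESeq2 size factors, DESeq2, limma, both other filters and a fit of the 5 compared libraries alone. A fit of 25 libraries of both tissues gave 734 and 604. With Tconv_dLN_icKO replicate 3, 12 dLN libraries gave 89 and 77, 26 libraries gave 246 and 269, and the 6 compared libraries alone, a fit added after seeing the data, gave 0 and 0, with a median of all genes shifted to 0.27, 0.30 and 0.27 on the log2 scale. Leaving out 1 icKO library gave 1024 to 1376 higher and 764 to 1176 lower, the lowest without Tconv replicate 1. Where 1 Tconv library was left, its spread was taken from the other groups. The interaction had 0 calls, 9 with DESeq2, 1 without a filter and 0 to 1 with 1 library left out (1 without Treg Ctrl replicate 1 or Tconv icKO replicate 2). Deviations of same-numbered Treg and Tconv libraries over all genes had correlations of 0.075 and 0.067 in icKO over 11 libraries, of -0.001, -0.008 and -0.052 in icKO over 12, and of -0.01, 0.11 and -0.016 in Ctrl. Not every pair was above 0.1, so the numbers were not taken as pairs, although interferon genes were highest in replicate 2 of both cell types in icKO. For icKO these correlations cannot exclude pairs. Deviations from the mean of 2 Tconv libraries mirror each other, and over 12 libraries replicate 3 enters that mean. The replicate block gave 1375 and 1116 with 11 libraries, and with 12 libraries 5 and 5. Of 117 named genes, DESeq2 size factors changed no call, 24 stayed called with 12 libraries, and 28 lost the call with 25 libraries.

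Reversed log2 fold changes with Tconv_dLN_icKO replicate 3 in 12, 26 and the 6 compared libraries were -1.70, -1.67 and -1.70 for Tnfsf14, -0.38, -0.35 and -0.38 for Nfkbid, and -0.063, -0.029 and -0.066 for Traf1. They were -0.67, -0.64 and -0.68 for Slc16a3, -2.09, -2.05 and -2.09 for Cd79b, -0.26, -0.23 and -0.26 for Lyz2, and -1.32, -1.28 and -1.32 for Csf1r. With the replicate block and 12 libraries, Tnfsf14 was -0.20 and Dnajb1 0.0077. None of these reversed values passed the test. The library labelled Tconv_dLN_icKO replicate 3 held 7775649 counts. In CPM it exceeded every Treg icKO library for Tnfsf14, Nfkbid, Traf1, Slc16a3, Cd79b, Lyz2 and Csf1r, but not for Dnajb1. The cause was not tested.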
